A study of Homo sapiens with 10 samples.

Results

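Peaks of the repressive histone marks H3K9me3 and H3K27me3 were compared with each other within each of 2 conditions of HEK-293T cells, a human embryonic kidney line that carries the SV40 large T antigen. The compared regions were chosen by list membership alone: all peaks in the H3K9me3 and H3K27me3 lists of the control cells (CT) and of the CGGBP1 knockdown cells (KD), 33709 regions among the 285741 peaks of the 9 unmasked lists used here. CT cells carried a non-targeting shRNA and KD cells an shRNA against CGGBP1, a DNA-binding protein of GC-rich and repeat sequences, and both were selected with puromycin. Each mark and condition had 1 ChIP-seq library, sequenced as single-end Ion Torrent reads, and 1 input library, chromatin without immunoprecipitation, was sequenced from cells whose condition is not given. With 1 library per group no difference has a replicate check and no test was made. The 95% intervals of shares of peaks, exons or genes are exact Clopper-Pearson intervals. Those of differences between 2 shares of peaks are Newcombe intervals, and those of differences in repeated bases or median width are of neither kind. All cover counting error only. The lists hold positions without read counts, so the depth behind a peak is unknown. CGGBP1 itself was not measured by these lists.

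The antibodies of the libraries called H3K9me3 and H3K27me3 are named oppositely by the sample labels and by the study's methods. In the labels, ab6002 goes with H3K9me3 and SC-130356 with H3K27me3, and in the methods the assignment is exchanged. H3K9me3 and H3K27me3 therefore stand throughout for the library labelled so, and each statement on a mark is bound to that label.

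H3K9me3 is deposited by SUV39H and SETDB1 enzymes and is known from constitutive heterochromatin, such as centromeric satellite DNA, and from silenced transposable elements. H3K27me3 is deposited by Polycomb repressive complexes and is known from broad domains over silent developmental genes, among them the HOX clusters. The 2 marks are thus known from largely separate parts of the genome.

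Sequence from the reference genome hg38 is given for 1 H3K9me3-only and 1 shared peak, as examples and not as typical members. Bases in capitals belong to 24-mers that occur at least 10 times in hg38, counted on both strands, and other bases are in lower case. For both classes the widest CT peak without input overlap that met a KD peak of the same class on a chromosome other than 8 is shown by its 100 central bases on the plus strand. The H3K9me3-only example is intergenic on chromosome 10, and the shared example lies in the last coding exon of THAP9 on chromosome 4.
H3K9me3 only, chr10:40633715-40633814: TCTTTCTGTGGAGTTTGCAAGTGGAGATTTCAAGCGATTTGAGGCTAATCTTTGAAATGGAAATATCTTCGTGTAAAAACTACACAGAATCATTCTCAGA
Shared, chr4:82917883-82917982: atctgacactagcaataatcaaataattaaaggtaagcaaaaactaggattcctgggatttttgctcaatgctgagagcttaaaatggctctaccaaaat

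The H3K9me3-only peak was 517 bp wide in CT and 244 bp in KD, and 99.8% of its CT bases were repeated in this sense, whereas the class had a median width of 162 bp in CT, 58.3% repeated bases and 32.2% of peaks without any. The shared peak was 1890 bp wide in CT and 1957 bp in KD and held no repeated base. In this it too stood apart from its class, whose bases were 95.8% repeated.

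The 24-mer held by the most peaks is given below for the shared and the H3K27me3-only class, though neither was confined to its class. Both are stretches of the alpha satellite of centromeres, named here from general knowledge, since no repeat annotation was used.
Shared, CT and KD: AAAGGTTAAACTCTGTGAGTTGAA
H3K27me3 only, CT and KD: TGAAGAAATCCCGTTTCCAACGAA

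The stretch of the shared class was held by 337 of 3496 shared H3K9me3 peaks in CT (9.64%, 95% interval 8.68 to 10.7) and by 368 of 3372 in KD (10.9%, 9.88 to 12). It was also held by 150 of the 2537 H3K27me3-only peaks in CT and 124 of 1458 in KD, by 232 and 161 H3K9me3-only peaks, and by 350 of the 2676 input peaks. The stretch of the H3K27me3-only class was held by 202 of 2537 peaks in CT (7.96%, 6.94 to 9.08) and by 153 of 1458 in KD (10.5%, 8.97 to 12.2). More peaks held it in the shared H3K9me3 class, with 318 of 3496 in CT and 335 of 3372 in KD, and in the H3K9me3-only class, with 289 of 11050 and 177 of 4984, and 276 input peaks held it as well.

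Peaks of the 2 labelled marks overlapped in both conditions, by a larger share of the shorter list. In CT, 3496 of 14546 H3K9me3 peaks overlapped an H3K27me3 peak by at least 1 bp (24%, 95% interval 23.3 to 24.7), and 3466 of 6003 H3K27me3 peaks overlapped an H3K9me3 peak (57.7%, 56.5 to 59.0). In KD, 3372 of 8356 H3K9me3 peaks were shared (40.4%, 39.3 to 41.4), and 3346 of 4804 H3K27me3 peaks (69.7%, 68.3 to 70.9). The number of shared peaks thus lay close in CT and KD, while the H3K9me3-only peaks numbered 11050 in CT and 4984 in KD, and the H3K27me3-only peaks 2537 and 1458. Over bases, the marks shared 780 kb in CT, which was 26.2% of the 2.98 Mb under H3K9me3 peaks and 53.8% of the 1.45 Mb under H3K27me3 peaks. In KD they shared 759 kb, 41.2% of 1.84 Mb and 66.6% of 1.14 Mb. Counted again by peaks, without those that overlap an input peak, 13.3% of the H3K9me3 and 44.6% of the H3K27me3 peaks were shared in CT and 25% and 58.3% in KD. Among the widest 6003 peaks of each CT list, 48.4% of the H3K9me3 and 48.2% of the H3K27me3 peaks were shared.

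**Figure D1:**
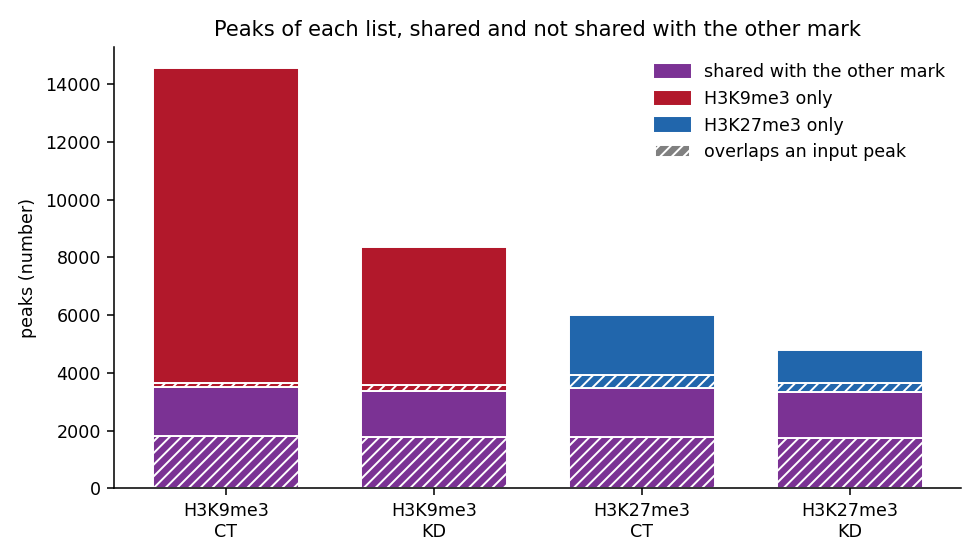
Stacked bars give the number of peaks (vertical axis) in each of the 4 lists, split into peaks shared with the other mark and peaks of 1 mark only, with hatching for peaks that overlap an input peak. The shared parts are of like height in all 4 lists, from 3346 to 3496 peaks, and about as much of each is hatched, whereas the H3K9me3-only part is 11050 peaks in CT and 4984 in KD.

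Input peaks met the shared class most and the H3K9me3-only class least. In CT, 1820 of 3496 shared H3K9me3 peaks overlapped an input peak (52.1%), against 137 of 11050 H3K9me3-only peaks (1.24%, 95% interval 1.04 to 1.46) and 454 of 2537 H3K27me3-only peaks (17.9%, 16.4 to 19.4). In KD the counts were 1779 of 3372 (52.8%), 220 of 4984 (4.41%, 3.86 to 5.02) and 318 of 1458 (21.8%, 19.7 to 24). The H3K27me3-only class thus exceeded the H3K9me3-only class by 16.7 percentage points in CT (Newcombe 95% interval 15.2 to 18.2) and by 17.4 in KD (15.3 to 19.7). For scale, 0.0570% of 152704 tiles of 200 bp, laid every 20 kb along hg38, overlapped an input peak. The input list is one and the same in every comparison, so these shares have their input in common.

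The lists of the other ChIP targets showed the same order. Shared H3K9me3 peaks overlapped a CT peak of H3K4me3, a mark of active promoters, in 81.1% of cases in CT and a CTCF peak in 82.2%. H3K9me3-only peaks did so in 7.48% and 15.9%, H3K27me3-only peaks in 52.9% and 22.8%, and tiles in 2.31% and 0.731%. In KD, with the KD lists, the shared class reached 80.2% and 85.7%, the H3K9me3-only class 16.1% and 23.7%, and the H3K27me3-only class 43.0% and 48.2%. All of H3K4me3, CTCF and input had a peak at 1580 of the 3496 shared H3K9me3 peaks in CT (45.2%) and at 1609 of 3372 in KD (47.7%), so that these places appeared in 5 lists. None of them had one at 224 shared peaks in CT (6.41%) and 196 in KD (5.81%), but at 8726 of 11050 H3K9me3-only peaks in CT (79.0%). For H3K9me3-only peaks in KD this share was 66.6%, and for H3K27me3-only peaks 35.0% in CT and 31.3% in KD. Where shared peaks had no input overlap, 65.2% in CT and 63.8% in KD still met an H3K4me3 peak, and 73.9% and 75.5% a CTCF peak.

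**Figure D2:**
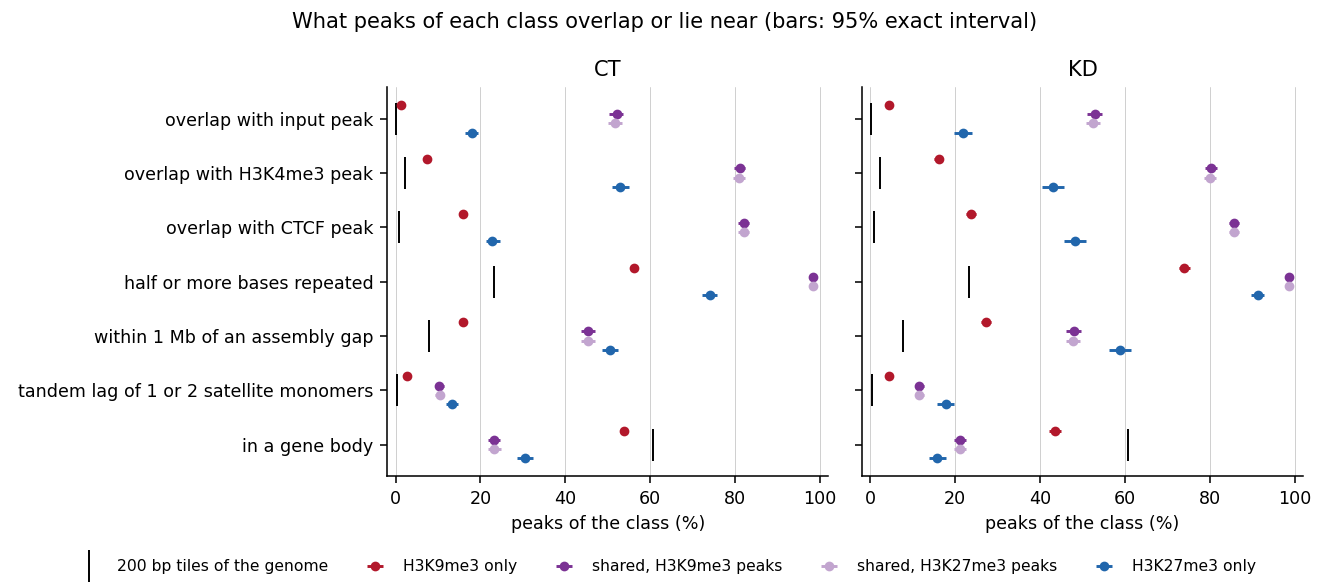
Points give the percentage of peaks of each class (horizontal axis) with the property on the vertical axis, with 95% exact intervals, in CT and KD, and black ticks the same for 200 bp tiles of the genome. The 2 sets of shared peaks lie at 52% to 53% for input and 80% to 86% for H3K4me3 and CTCF, right of both single-mark classes. "Repeated" means bases in 24-mers with at least 10 occurrences, the row on repeated bases counts peaks with at least 50% of such bases, and the tandem row counts windows that repeat at a lag near 171 or 342 bp.

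The H3K9me3-only peaks were the narrowest class in CT. Their median width was 162 bp with quartiles of 161 and 195 bp, and 6236 of 11050 (56.4%) lay within 2 bp of the narrowest width in that list, 161 bp. H3K27me3-only peaks in CT had a median of 186 bp (quartiles 160 and 237), and 14.7% lay within 2 bp of their list's narrowest width, 150 bp. Shared peaks were wider, with a median of 238 bp (202 and 282) on the H3K9me3 side and 215 bp (179 and 268) on the H3K27me3 side. In KD the single-mark classes came together, with medians of 171 bp for H3K9me3 only and 173 bp for H3K27me3 only, and 38.4% and 18.0% of them lay within 2 bp of the narrowest widths, 157 and 146 bp. Shared KD peaks had medians of 233 and 208 bp. Few peaks of any class were broad: 95% of the H3K9me3-only peaks in CT were at most 288 bp wide, and 95% of the H3K27me3-only peaks at most 400 bp.

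**Figure D3:**
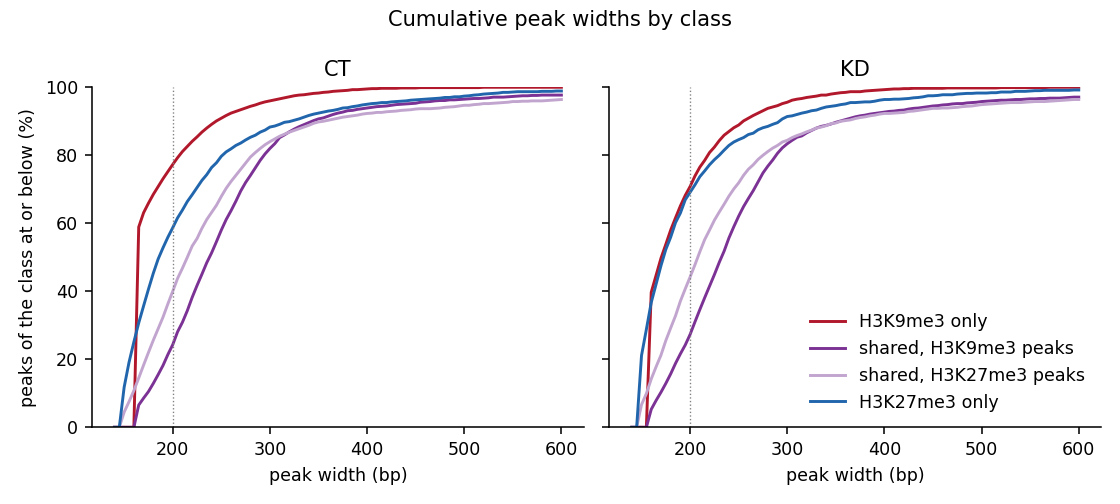
Curves give the percentage of peaks of a class (vertical axis) at or below each width in bp (horizontal axis), in CT and KD, with a dotted line at 200 bp. The H3K9me3-only curve in CT jumps at the narrowest width of the list, and 76.8% of that class is narrower than 200 bp, against 23.7% of the shared H3K9me3 peaks.

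On the assembled chromosomes, the density of each class differed between chromosomes. H3K9me3-only peaks in CT had a density of 3.71 per Mb of known sequence over chromosomes 1 to 22, X and Y, and between chromosomes from 1.93 on Y and 2.66 on 15 to 4.98 on 19. Shared H3K9me3 peaks averaged 1.11 per Mb and ranged from 0.523 on chromosome 6 to 2.82 on chromosome 19, with 2.47 on chromosome 21. H3K27me3-only peaks averaged 0.794 per Mb and ranged from 0.212 on chromosomes 3 and 6 to 2.67 on chromosome 19, 2.62 on 21 and 2.04 on 22. In KD the density of H3K9me3-only peaks was 1.67 per Mb, that of shared H3K9me3 peaks 1.06 and that of H3K27me3-only peaks 0.448, and chromosome 19 again led the shared class (3.13) and the H3K27me3-only class (1.95). These densities include input-overlapping peaks. Without them, the H3K9me3-only, shared H3K9me3 and H3K27me3-only classes averaged 3.66, 0.548 and 0.662 per Mb in CT. In KD they averaged 1.59, 0.519 and 0.355.

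**Figure D4:**
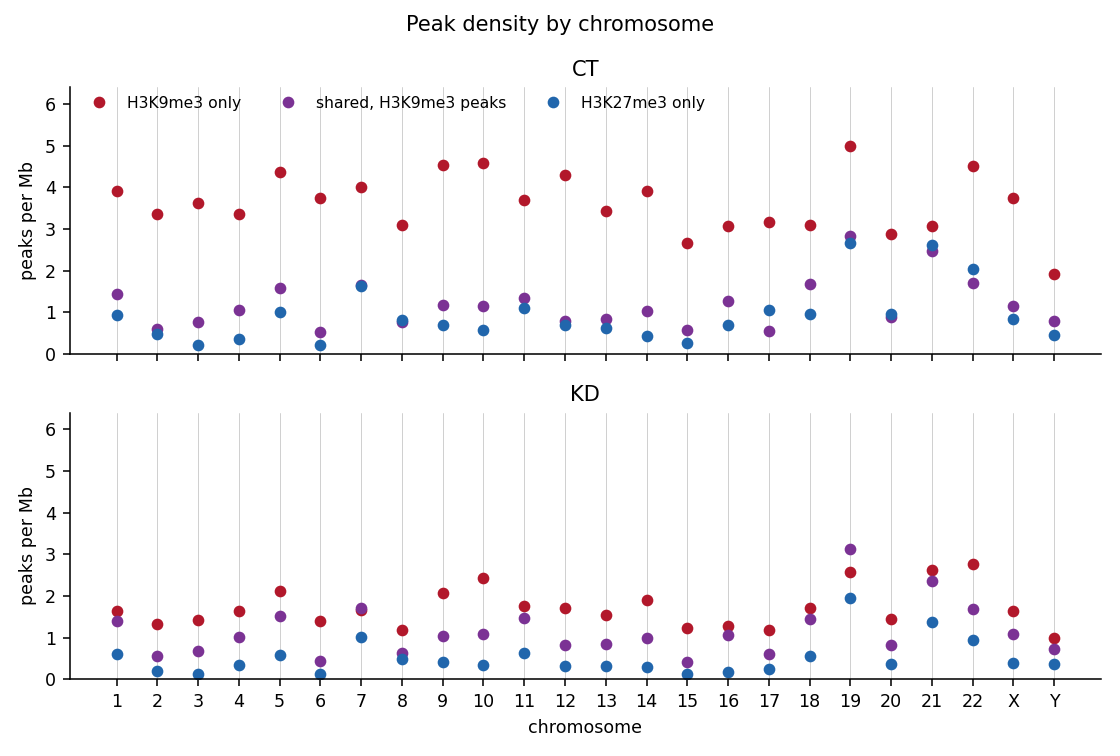
Points give peaks per Mb of known sequence (vertical axis) on each chromosome (horizontal axis) for 3 classes in CT and KD. The H3K9me3-only points lie above the others on every chromosome in CT, at 1.93 to 4.98 per Mb, whereas in KD the shared class passes them on chromosomes 7 and 19. Input-overlapping peaks are included. Without them the shared class stays below in KD, with 0.572 against 1.53 on chromosome 7 and 1.69 against 2.40 on chromosome 19.

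Sequences beyond these chromosomes held 161 H3K9me3-only peaks in CT (1.46%, 95% interval 1.24 to 1.70), 238 shared H3K9me3 peaks (6.81%, 5.99 to 7.69) and 205 H3K27me3-only peaks (8.08%, 7.05 to 9.21). In KD the shares were 1.83%, 7.41% and 9.81%. Of the tiles 3.82% lay there, mostly on alternate loci, which held 3.38% of tiles. Unplaced contigs held 0.206% of tiles but 3.74% of the H3K27me3-only peaks in CT and 4.53% in KD. They held 3.18% and 3.26% of the shared H3K9me3 peaks, and 0.326% and 0.642% of the H3K9me3-only peaks. The contig with the most peaks was chr14_GL000225v1_random, with 33 shared H3K9me3 and 29 H3K27me3-only peaks in CT, 41 and 20 in KD, and 35 input peaks, but 2 and 0 H3K9me3-only peaks. The contigs chr22_KI270733v1_random and chrUn_GL000220v1 each held 18 H3K27me3-only peaks in CT, against 0 and 1 H3K9me3-only peaks, and 16 and 13 input peaks. The mitochondrial sequence held 3 shared H3K9me3 peaks in CT and 3 in KD, and no single-mark peak.

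Shared and H3K27me3-only peaks lay near assembly gaps. Within 1 Mb of a run of at least 10000 unknown bases lay 50.6% of the H3K27me3-only peaks in CT and 58.7% in KD, and 45.4% and 47.9% of the shared H3K9me3 peaks. H3K9me3-only peaks lay there in 16% and 27.2% of cases, and tiles in 7.78%. The 1 kb around a peak was self-similar at a lag within 3 bp of 171 bp or 4 bp of 342 bp, the lengths of 1 and 2 alpha satellite monomers, with at least 0.7 of bases identical, for 13.3% of the H3K27me3-only peaks in CT, 10.2% of the shared H3K9me3 peaks and 2.59% of the H3K9me3-only peaks, against 0.434% of tiles. In KD the values were 17.8%, 11.4% and 4.47%. Repeated 24-mers made up 95.8% of the bases of shared H3K9me3 peaks in CT, 69.8% of those of H3K27me3-only peaks and 58.3% of those of H3K9me3-only peaks, and 23.8% of tile bases. In KD they made up 95.7%, 88.2% and 75.2%. Input peaks had 90.2% of their bases in such 24-mers, above both single-mark classes and below the shared class in both conditions. With 24-mers of at least 100 occurrences, the order of the single-mark classes turned, with H3K27me3-only minus H3K9me3-only at -2.15 percentage points in CT (95% interval -4.33 to 0.0320) and -4.40 in KD. Among peaks of at least 200 bp it was -9.38 points in CT (-12.2 to -6.52) and 0.860 in KD (-1.68 to 3.40), so the direction depends on the peaks and 24-mers counted. The CT difference, 11.5 points over all peaks, was 21.2 without peaks over coding exons, 6.95 without input-overlapping peaks and 1.97 (-0.272 to 4.21) among the widest peaks in equal number, and the KD difference, 12.9, was 11.8, 14.3 and 8.71. The median GC content was 39.1% for H3K9me3-only, 39.2% for shared H3K9me3 and 40.2% for H3K27me3-only peaks in CT, and 40% for tiles.

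The windows of 100 kb with the most peaks, input-overlapping peaks set aside, showed these places by name. For H3K9me3 only in CT they lay on chromosome 10 at 40700001 to 40800000 and 41200001 to 41300000, with 19 peaks each, and at 41100001 to 41200000, with 13. The last of these also led in KD, with 14 peaks. None of these windows holds an annotated gene, and at least 99.9% of the peaks' bases there were repeated. In the order given, the windows also held 6, 4 and 3 input peaks and 22, 18 and 17 CTCF CT peaks. H3K27me3 CT peaks of any kind numbered 7, 1 and 3 there. For the shared class in CT, windows on chromosome 1 at 124700001 to 124800000 and at 143200001 to 143300000 held 8 peaks each, and in KD a window on chromosome 19 at 27100001 to 27200000 held 9. The windows at 124700001 and at 27100001 also held 5 and 8 input peaks. The window of chromosome 1 at 143200001 held 35 input peaks as well, and 46 H3K9me3 and 44 H3K27me3 peaks of any kind in CT. For H3K27me3 only, the window of chromosome 21 at 8400001 to 8500000, which holds an annotated copy of 5.8S ribosomal RNA (RNA5-8SN1), led in both conditions, with 26 peaks in CT and 16 in KD, and held 12 input peaks as well, and 37 H3K27me3 peaks of any kind in CT and 25 in KD. The windows that followed in CT lay over ATM on chromosome 11, at 108200001 to 108300000 with 25 peaks and at 108300001 to 108400000 with 20, and these held 0 and 1 H3K27me3 peaks of any kind in KD. In KD they lay on chromosome 8 at 85700001 to 85800000, over copies of the REXO1L pseudogene family, with 14 peaks, beside 25 input peaks and 33 H3K27me3 KD, 43 H3K27me3 CT and 42 H3K4me3 KD peaks of any kind, and on chromosome 21 at 8200001 to 8300000 with 9, beside 8 input peaks.

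By intronic and intergenic share, H3K9me3-only peaks were the class nearest to the genome at large, in CT more closely than in KD. With each peak assigned in the order promoter (1 kb either side of a transcription start), coding exon, other exon, intron and intergenic, 45.5% of the H3K9me3-only peaks in CT were intronic and 45.0% intergenic, against 49.7% and 38.2% of tiles. Shared H3K9me3 peaks were 21.1% intronic and 76.4% intergenic, and H3K27me3-only peaks 11.3% and 67.8%. In KD, H3K9me3-only peaks were 37.0% intronic and 55.5% intergenic, shared H3K9me3 peaks 19.3% and 78.6%, and H3K27me3-only peaks 10.3% and 83.1%. Promoters held 6.67% of the H3K9me3-only, 1.81% of the shared H3K9me3 and 11% of the H3K27me3-only peaks in CT, and 7.84% of tiles. In KD they held 5.5%, 1.79% and 4.11%. Coding exons outside promoters held 8.36% of the H3K27me3-only peaks in CT, but 0.872% of the H3K9me3-only peaks, 0.399% of the shared H3K9me3 peaks, 1.14% of the H3K27me3-only peaks in KD and 1.59% of tiles.

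The coding-exon peaks of the H3K27me3 library in CT were concentrated in a few genes. Of the 1944 H3K27me3-only peaks in CT on chromosomes 1 to 22, X and Y without input overlap, 295 overlapped a coding exon, those at promoters included, and 237 of these (80.3%) fell on 22 genes with at least 5 each. These genes were singled out after their values were seen. What single genes are known for is given as background, and no gene group was tested for enrichment. ATM (ENSG00000149311, chromosome 11, 108223044 to 108369102, plus strand), the kinase that signals double-strand breaks, led with 45 peaks, all over coding exons, and 50 of its 62 coding exons held one. BRCA2 (ENSG00000139618, chromosome 13, 32315086 to 32400268), which acts in homologous recombination, followed with 19 peaks over 17 of 31 coding exons. RAD50 (ENSG00000113522, chromosome 5, 132556019 to 132646349), of the break-sensing MRN complex, had 17 peaks over 18 of 29 coding exons. By peaks anywhere in the gene, the 5 leading genes were ATM, BRCA2, RAD50, ENSG00000283782 and C11orf65, the last 3 with 17 each. ENSG00000283782 is a gene model that overlaps RAD50, and C11orf65 overlaps ATM on the other strand, so these 5 genes stand for 3 places. Over its own coding exons ENSG00000283782 had 15 peaks, and C11orf65 is not among the 22 genes.

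Further members include BRIP1 with 15 peaks, BRCA1 and NBN with 14, CDH1 with 13, PALB2 with 10, ERBB2 and RAD51C with 9, CHEK2 and DYSF with 8, and BARD1, CASP8 and COL6A3 with 7, while CAPN3, LAMA2 and TGFB1 had 5. BRIP1, BRCA1, NBN, PALB2, RAD51C, CHEK2 and BARD1 act in DNA repair or its signalling, CDH1 is a tumour suppressor, and DYSF (dysferlin), CAPN3 (calpain 3), LAMA2 (laminin alpha 2) and COL6A3 (a collagen VI chain) are genes of muscular dystrophies. Of the 245 H3K27me3 peaks in CT within the 22 genes, 242 (98.8%) overlapped a coding exon, while coding exons make up 3.37% of the genes' bases, a share that the choice of the genes bears on.

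The 22 genes were chosen by their H3K27me3 peaks in CT that meet no H3K9me3 CT peak, so that their share in H3K27me3 CT, 258 of 563 coding exons (45.8%), is set by the choice, and that in H3K9me3 CT is bound to it. In the other lists, H3K4me3 CT had a peak at 272 exons (48.3%, 95% interval 44.1 to 52.5), H3K4me3 KD at 26 (4.62%), H3K27me3 KD at 0, H3K9me3 CT at 12 (2.13%), H3K9me3 KD at 7 (1.24%), CTCF CT at 3, CTCF KD at 4 and the input at 0. Over all 211919 coding exons of protein-coding genes, 0.158% held an H3K27me3 CT peak, 0.0127% an H3K27me3 KD peak, 6.80% an H3K4me3 CT peak, 7.0% an H3K4me3 KD peak, 0.0722% an H3K9me3 CT peak, 0.0269% an H3K9me3 KD peak, 0.705% a CTCF CT peak, 0.972% a CTCF KD peak and 0.00708% an input peak. The 12 exons with an H3K9me3 CT peak lay in DYSF (3), COL6A3 (2), CAPN3 (3) and LAMA2 (4), and the 7 with an H3K9me3 KD peak in COL6A3 (4), CAPN3 (1) and LAMA2 (2), so that these pooled shares rest on 4 genes of muscle disease and the other 18 genes had none. Of the 295 peaks, 232 (78.6%) overlapped an H3K4me3 CT peak, 4 a CTCF CT peak, and 12 an H3K27me3 KD peak. Their median width was 236 bp and 4.23% of their bases were repeated, unlike the rest of the class. Without these and the input-overlapping peaks, the H3K27me3-only class in CT had 78.3% of its bases repeated, against 64.6% with the peaks over coding exons. How these peaks came to be in the lists, and whether they reflect H3K27me3 in the cells, was not tested.

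**Figure D5:**
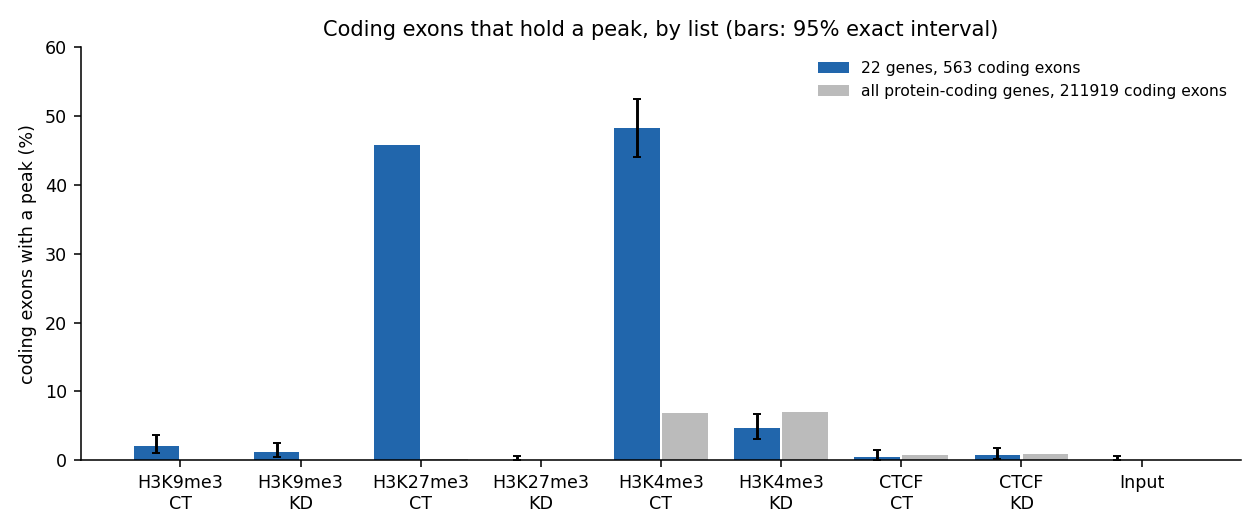
Bars give the percentage of coding exons that hold at least 1 peak (vertical axis) in each of 9 lists (horizontal axis), for the 563 coding exons of the 22 genes (blue, with 95% exact intervals except for H3K27me3 CT, whose peaks chose the genes) and for all protein-coding genes (grey). H3K4me3 CT reaches 48.3% in the 22 genes and H3K4me3 KD 4.62%, against 6.80% and 7.0% over all genes.

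In KD the leading genes of the H3K27me3-only class were others and held few peaks. TTC34 had 4, HRNR, which encodes the skin protein hornerin, 3, and USP17L15, of a multicopy deubiquitinase family, CCDC200 and NBPF26 had 2 each. The 3 HRNR peaks overlapped a coding exon and H3K4me3 KD peaks, and HRNR also had 3 H3K27me3 peaks in CT. Over coding exons lay 15 of the 1042 H3K27me3-only peaks in KD, on the same chromosomes and without input overlap, and 11 of these 15 met H3K27me3 alone in CT.

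Leading genes of the H3K9me3-only class in CT were long ones. DMD, which encodes dystrophin and spans 2242 kb of chromosome X, had 16 peaks, 6 of them over coding exons, NAALADL2 and CNTNAP2 (a neuronal adhesion protein) 13 each, and EYS (a photoreceptor protein) and PTPRD (a receptor tyrosine phosphatase) 12 each. Counted over H3K9me3 peaks of any class, these genes held 18, 13, 13, 13 and 13 in CT and 5, 2, 2, 3 and 3 in KD. The CT counts chose the genes, so lower KD numbers are bound to the choice. The whole H3K9me3 list was also shorter in KD, with 8356 peaks against 14546 in CT. The KD class was led by CTNNA3, an alpha-catenin, with 6 peaks, MAGI2, a junction scaffold, and RARB, a retinoic acid receptor, with 5 each, and COL6A3 and AGBL4 with 4 each. The 4 KD peaks of COL6A3 all overlapped coding exons and held no repeated base. Over coding exons lay 131 of 10753 H3K9me3-only peaks in CT, and none of these had a peak of either mark in KD. Most of the class was alike in this, as 86.4% of all H3K9me3-only peaks in CT without input overlap met neither mark in KD. The median width of the 131 peaks was 161 bp, the narrowest width of the list.

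THAP9, which encodes a protein related to the P element transposase of Drosophila, led the shared class in both conditions although it spans 19.3 kb. Each of the 4 lists had 4 peaks in this gene (ENSG00000168152, chromosome 4, 82900684 to 82919969, plus strand), at the same 4 of its 8 annotated coding exons. The last coding exon, 82916944 to 82918921, measures 1978 bp, and peaks covered 1890 bp of it in H3K9me3 CT, 1957 bp in H3K9me3 KD, 1948 bp in H3K27me3 CT and 1917 bp in H3K27me3 KD. The coding exons of 206, 304 and 151 bp were met by H3K9me3 CT peaks of 241, 340 and 176 bp that covered all their coding bases, and by H3K27me3 KD peaks of 210, 303 and 155 bp. H3K4me3 peaks of 1964 bp in CT and 1906 bp in KD and CTCF peaks of 1896 bp in CT and of 1388 and 264 bp in KD lay on the last exon as well. The input list had no peak in THAP9. The THAP9 peaks held no repeated base, and whether they reflect histone marks was not tested.

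Other leading genes of the shared class had peaks in repeated sequence. In CT, DSCAM, a neuronal adhesion gene, had 4 shared peaks, and RALYL and ARHGEF3 had 3 each, and all bases of these peaks were repeated. In KD, RALYL, ALK, a receptor tyrosine kinase gene, and CNBD1 had 2 each.

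Genes known to carry each mark were then read from both lists, as genes with a peak in the gene body or within 1 kb of it. Over all 20033 protein-coding genes, this held for 17.5% in H3K9me3 CT, 8.13% in H3K9me3 KD, 3.33% in H3K27me3 CT, 2.24% in H3K27me3 KD and 1.03% in the input. None of 39 HOX genes and none of 51 developmental transcription factor genes, both known as targets of H3K27me3, had an H3K27me3 peak in CT or in KD, with upper 95% limits of 9.03% and 6.98% that lie above the shares over all genes, so these counts do not set the lists apart from all genes. In the H3K9me3 lists, HOXB3 and HOXD3 had 1 peak each in CT, HOXA3, HOXA6 and HOXA9 had 1 each in KD, and of the developmental factors PAX5, a regulator of B cells, had 3 in CT. HOXA6 lies within HOXA3, so both hold the same KD peak. The median HOX gene spans 4.22 kb and the median protein-coding gene 27.5 kb, so the shares over all genes are not matched on length.

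Known targets of H3K9me3 were read in the same way, with ribosomal protein genes beside them. Over all protein-coding genes, 17.5% had an H3K9me3 peak in CT and 8.13% in KD, and 3.33% and 2.24% an H3K27me3 peak. Every list given here lay below these shares. In H3K9me3 the intervals of the ZNF genes include them in both conditions, those of the protocadherin genes in CT and those of the ribosomal protein genes in KD. In H3K27me3 the intervals of all these lists but the olfactory receptor genes include them in both conditions. Of 246 ZNF genes of chromosome 19, zinc finger genes whose 3' exons are known to carry H3K9me3, 38 had an H3K9me3 peak in CT (15.4%, 95% interval 11.2 to 20.6) and 17 in KD (6.91%, 4.08 to 10.8), with ZNF420 holding 3 and 2. H3K27me3 peaks lay in 5 and 4 of them. Among 53 clustered protocadherin genes, 7 had an H3K9me3 peak in CT and 0 in KD, and 1, PCDHB14, had an H3K27me3 peak in CT. Those 7, PCDHGA1 and PCDHGA2 among them, overlap each other. PCDHGA1 spans the others and holds 1 peak, so all 7 counts rest on the same peak. Of 415 olfactory receptor genes, 9 had an H3K9me3 peak in CT (2.17%) and 6 in KD (1.45%), with OR51B5 holding 4 and 2, and 3 and 1 had an H3K27me3 peak. Of 79 ribosomal protein genes, which are active in all cells, 5 had an H3K9me3 peak in CT (6.33%) and 3 in KD, and 1, RPS29, an H3K27me3 peak in CT. The median gene spans 25.9 kb in the ZNF list, 110 kb in the protocadherin, 2.38 kb in the olfactory and 5.55 kb in the ribosomal list. Against 27.5 kb over all protein-coding genes, the shares are not matched on length. These counts do not show which antibody was used for which library.

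Single-mark peaks lay closer to peaks of the other mark than tiles did. The tiles were not matched on place, although both single-mark classes lay near assembly gaps more often than tiles, and input-overlapping peaks were kept. Whether the closeness goes beyond such common places was not tested. Of the H3K27me3-only peaks on chromosomes 1 to 22, X and Y, 48.2% in CT (95% interval 46.1 to 50.2) and 62.1% in KD (59.4 to 64.7) had an H3K9me3 peak within 10000 bp, against 8.31% and 4.31% of tiles. Their median distance to an H3K9me3 peak was 11.2 kb in CT and 6.27 kb in KD, against 94.4 and 223 kb for tiles. Of the H3K9me3-only peaks, 10.3% in CT and 18.4% in KD had an H3K27me3 peak within 10000 bp, against 2.42% and 1.97% of tiles. Their median distance to one was 443 kb in CT and 371 kb in KD, and that of tiles 592 and 815 kb.

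The classes also differed in how often a place kept its state between conditions. Of the 3496 shared H3K9me3 peaks in CT, 2604 (74.5%) met peaks of both marks in KD, 545 H3K9me3 alone, 174 H3K27me3 alone and 173 (4.95%) neither. Of the 11050 H3K9me3-only peaks in CT, 1182 (10.7%, 95% interval 10.1 to 11.3) met H3K9me3 alone in KD, 257 both marks, 156 H3K27me3 alone and 9455 (85.6%) neither. Of the 2537 H3K27me3-only peaks in CT, 595 (23.5%) met H3K27me3 alone, 356 both marks, 214 H3K9me3 alone and 1372 (54.1%) neither. Read from KD, 61.1% of the H3K9me3-only, 37.0% of the H3K27me3-only and 4.80% of the shared H3K9me3 peaks met neither mark in CT. The same state in CT was met by 23.7% of the H3K9me3-only, 40.4% of the H3K27me3-only and 76.8% of the shared H3K9me3 peaks in KD. Without input-overlapping peaks, 59.4% of the shared H3K9me3 peaks in CT met both marks in KD. Of the 295 H3K27me3-only peaks over coding exons, 279 (94.6%) met neither mark in KD.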

How the data were processed

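ChIP-seq libraries of H3K9me3 and H3K27me3 from CT and KD HEK-293T cells, with 1 input library, were used with the H3K4me3 and CTCF lists of the same conditions. After trimming and filtering, the authors aligned reads to hg38 without repeat masking (Bowtie2, end-to-end mode) and obtained peaks of each library from MACS2. Versions of both are not given. The methods name default options, with which Bowtie2 places a read that fits several copies equally at 1 of them, while the text on CTCF describes keeping reads with a single best place. Which holds for the histone lists was not tested. The labels give a p threshold of 0.001 for the histone and input lists and of 0.0025 for the CTCF lists of CT and KD. The methods give 0.005, with a minimum length of 200 bp. The deposited lists hold start and end positions only (no scores), read as counted from 0 and given here counted from 1, and hold no depth. Read totals that the authors give elsewhere were not used here.

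Peaks of a condition were shared when they overlapped by at least 1 bp. Groups follow the titles. Genes came from GENCODE release 44, and 24-mers and lags from hg38. The monomer lag is the commonest lag from 100 to 250 bp among self-similar tiles, a rule written after the lags of tiles were seen. The sequence code was tested on simulated sequence. Python 3.11.15, numpy 2.4.6, pandas 2.3.3, scipy 1.17.1, numba 0.67.0, matplotlib 3.10.9 and samtools 1.23.1 were used. Named genes are, per class and condition without input-overlapping peaks, the 5 protein-coding genes with most peaks, ties going to bases covered, beside the 3 leading windows of 100 kb. Some genes and sequences that these rules give are not reported here. Genes over coding exons were added after values were seen. Members and lists were chosen with earlier results of these data known. Alternatives changed the overlap rule, widths, joining, input, chromosomes, promoter length and repeat minimum. Repeat-masked and exclusive lists and the CTCF overexpression library were not used.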

Additional observations from a re-analysis of the deposited data

Results flagged for a closer look

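The difference in promoter share between the single-mark classes had opposite signs in CT and KD. In CT 11% of the H3K27me3-only peaks and 6.67% of the H3K9me3-only peaks lay at a promoter, a difference of 4.35 percentage points (Newcombe 95% interval 3.05 to 5.76). In KD the shares were 4.11% and 5.5%, a difference of -1.39 points (-2.55 to -0.0360), an interval that ends close to 0. With an overlap of 0.5 of both peaks the KD difference was -0.967 points (-2.15 to 0.389), an interval that includes 0. With promoters of 5 kb the differences were 2.08 points in CT (0.186 to 4.04) and -3.92 in KD (-6.01 to -1.67), and without input-overlapping peaks 5.30 and -2.31 (-3.46 to -0.905). The difference between conditions was not tested, since each group has 1 library. Without peaks over coding exons, an alternative chosen after seeing the data, the CT difference was 1.07 points (-0.101 to 2.37) and the KD difference -1.40. With peaks of at least 200 bp, the minimum length in the methods, the KD difference was 2.82 points (0.930 to 5.18) and the CT difference 8.19 (6.27 to 10.3), so the signs did not differ there.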

How the results depend on the processing

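Shares and differences were recomputed under 7 to 9 alternatives each, 1 of them, without peaks over coding exons, chosen after seeing the data. No paired analysis was possible because each group has 1 library. For the shared part of H3K9me3 peaks in CT and KD, main values 24% and 40.4%, an overlap of 0.5 of both peaks gave 22.5% and 38.2%, a gap of at most 1 kb 25.8% and 42.8%, peaks joined within 1 kb 22.9% and 39.3%, chromosomes 1 to 22, X and Y 23% and 39%, peaks of at least 200 bp 35.1% and 42.4%, the widest peaks in equal number 48.4% and 58.3%, and removal of input-overlapping peaks 13.3% and 25%. For the shared part of H3K27me3 peaks, main values 57.7% and 69.7%, the overlap of 0.5 gave 54.4% and 66.5%, the gap 63.2% and 74.2%, joining 60.2% and 71.7%, the widest peaks 48.2% and 58%, removal of input-overlapping peaks 44.6% and 58.3%, and removal of peaks over coding exons 60.6% in CT. The input overlap of H3K27me3-only minus H3K9me3-only peaks, 16.7 and 17.4 percentage points, was positive under every alternative run. In CT it was 18.7 with the overlap of 0.5, 15.2 with the gap, 14.9 with joining and with the widest peaks, 23.9 with peaks of at least 200 bp and 18.8 without peaks over coding exons, and in KD 24.5 with peaks of at least 200 bp and 12.7 with the widest peaks. Of these 3 results in both conditions, 13 recomputed values stayed within the main interval and 33 did not. Of the 80 values for the other differences between single-mark classes, 50 stayed within it, 25 moved and 5 turned. Those that turned were bases in repeated 24-mers in CT (-9.38 points with peaks of at least 200 bp, -2.15 with 24-mers of at least 100 occurrences) and in KD (-4.40 with the latter), the median width in CT (-44.0 bp with the widest peaks, by construction), and the promoter share in KD (2.82 points with peaks of at least 200 bp). A change of sign was counted as turned only where the main interval did not span both signs. The main interval of the median width in KD does span both. That width also changed sign, with the widest peaks and without input-overlapping peaks. The former was counted as moved and the latter as within the main interval. Apart from the widths of the widest peaks, the cause of the changes was not tested. Taking the widest peaks in equal number keeps the whole H3K27me3 list and cuts the H3K9me3 list by width, so it sets the sign of a width difference by construction (-45.0 bp in KD) and says nothing about widths. Depth behind each peak is unknown, a place missing from a list may lie just under the threshold of the peak caller, and intervals cover counting error of peaks, which are not independent where copies of 1 repeat hold many of them.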

Other observations

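The narrowest peaks bear on the stated minimum length. The methods give a minimum of 200 bp, and 64.0% of the H3K9me3 CT peaks, 52.8% of the H3K9me3 KD peaks, 47.2% of the H3K27me3 CT peaks and 51.2% of the H3K27me3 KD peaks were narrower, against 1.64% of the input peaks. The narrowest widths were 161, 157, 150 and 146 bp in the same order, and 5249 H3K9me3 CT peaks were exactly 161 bp wide.

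Coding exons of 5 genes held peaks of several libraries, none of them the input. This was not particular to the 5 genes, as THAP9, HRNR and TRAPPC11, among others, showed it too. COL6A3 had peaks at 9 coding exons in H3K27me3 CT, 14 in H3K4me3 CT, 4 in H3K9me3 KD, 2 in H3K9me3 CT and 1 in H3K4me3 KD. LAMA2, with 67 coding exons, had them at 27 in H3K4me3 CT, 8 in H3K4me3 KD, 7 in H3K27me3 CT, 4 in H3K9me3 CT, 2 in H3K9me3 KD and 1 in each CTCF list. CAPN3 had them at 11 in H3K4me3 CT, 8 in H3K27me3 CT, 3 in H3K9me3 CT and 1 in H3K9me3 KD, and DYSF at 10 in H3K27me3 CT, 9 in H3K4me3 CT, 3 in H3K9me3 CT and 1 in H3K4me3 KD. DMD had them at 9 in H3K4me3 CT, 6 in H3K9me3 CT, 4 in H3K4me3 KD, and 1 in each of H3K9me3 KD and H3K27me3 CT. The 5 genes were picked after their values were seen.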
